A study of Mus musculus with 4 samples.

Results

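The genes described here are 59 markers of liver cells other than hepatocytes, of 21883 protein-coding genes in the RefSeq table of GRCm38.p6. They are 16 markers of hepatic stellate cells, 15 of Kupffer cells and other macrophages, 16 of endothelial cells, mainly sinusoidal, and 12 of cholangiocytes. The genes were chosen by name from general knowledge of these cells, and all 59 matched. A peak was counted for a gene when it overlapped the window from 5 kb before the gene's start to 5 kb after its end. The peaks came from ChIP-seq of H3K23pr, propionylation of lysine 23 of histone H3, in whole liver of male C57BL/6 mice. The KO group was liver with a hepatocyte-specific knockout of RPN11, and the WT group was liver of RPN11 flox/flox mice. Each genotype had 1 immunoprecipitate (IP) and 1 input library, so no test of genotype was possible and no value below has a replicate error. Age, diet, the Cre driver and the number of animals per library are not given in the sources used here.

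Histone propionylation is placed on lysines from propionyl-CoA, a product of the breakdown of branched-chain amino acids and odd-chain fatty acids. RPN11, encoded by Psmd14, is the deubiquitylating enzyme of the proteasome lid. Stellate cells store vitamin A and make matrix when activated, Kupffer cells are the resident macrophages, sinusoidal endothelial cells line the fenestrated capillaries, and cholangiocytes line the bile ducts. By the design these cells keep RPN11 in the knockout, though with no Cre driver given this could not be checked for any class. They are a minority of liver chromatin beside hepatocytes, so a peak in a marker gene cannot be assigned to the cells the gene marks. In a whole-liver library, fewer cells of a type and less of the mark per cell cannot be told apart. No expression was measured, so the marker names could not be checked against levels.

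The IP libraries held 15468265 KO and 13615838 WT fragments after the caller's duplicate filter, with mean fragment sizes of 71 bp and 97 bp. The caller listed 41907 KO and 54397 WT peaks, a ratio of 0.770 over the whole lists. Depth, fragment size and genotype move together and cannot be told apart. Psmd14 itself had 10 KO peaks and 7 WT peaks in a window of 98.7 kb. The medians of 1453 genes with windows within 20% of that length were 1 KO and 2 WT peaks. The count at Psmd14 is no check of the deletion, because a peak reports neither the allele nor its RNA.

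The promoter sequences below are shown because no peak of either list lay in them. They belong to the member of each class whose peak lay nearest to its start site, among members whose start site could be placed. Each is the 250 bases before the RefSeq start site in GRCm38.p6, written 5′ to 3′ along the gene, with capitals marking the letters TATAAA on either strand.
Col3a1 (chr1:45311288-45311537, plus strand): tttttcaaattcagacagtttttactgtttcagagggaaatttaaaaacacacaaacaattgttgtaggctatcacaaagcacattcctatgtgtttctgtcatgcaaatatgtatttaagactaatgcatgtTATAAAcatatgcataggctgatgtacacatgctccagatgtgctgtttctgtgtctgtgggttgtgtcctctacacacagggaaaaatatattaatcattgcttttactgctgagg
Ptprc (chr1:138175306-138175555, minus strand): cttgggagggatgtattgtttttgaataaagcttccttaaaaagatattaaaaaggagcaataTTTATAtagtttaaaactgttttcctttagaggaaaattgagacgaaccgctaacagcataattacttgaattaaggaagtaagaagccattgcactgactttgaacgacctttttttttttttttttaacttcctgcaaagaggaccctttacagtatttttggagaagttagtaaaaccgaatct
Emcn (chr3:137340828-137341077, plus strand): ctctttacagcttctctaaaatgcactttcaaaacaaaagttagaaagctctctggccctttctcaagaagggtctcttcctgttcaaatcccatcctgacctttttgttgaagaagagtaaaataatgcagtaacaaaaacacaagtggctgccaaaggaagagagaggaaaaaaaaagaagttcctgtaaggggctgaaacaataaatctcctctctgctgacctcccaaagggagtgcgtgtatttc
Spp1 (chr5:104434861-104435110, plus strand): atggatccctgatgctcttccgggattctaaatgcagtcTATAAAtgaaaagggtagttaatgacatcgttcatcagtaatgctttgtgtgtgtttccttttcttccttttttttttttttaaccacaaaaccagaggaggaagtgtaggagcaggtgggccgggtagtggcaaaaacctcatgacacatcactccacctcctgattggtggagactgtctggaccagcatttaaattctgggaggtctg
Col3a1, a fibrillar collagen of stellate cells, has 35.2% GC and 0 CpG in these bases, and its nearest peak was a KO peak centred 2238 bp after the start site. Ptprc, the leukocyte phosphatase CD45, has 31.6% GC and 4 CpG, with a KO peak 1118 bp after and a WT peak 1754 bp before the start site. Emcn, an endothelial sialomucin, has 40.8% GC and 1 CpG, with a WT peak 1612 bp after the start site. Spp1, the secreted phosphoprotein osteopontin, has 43.6% GC and 3 CpG, with a KO peak 1272 bp and a WT peak 2664 bp before the start site.

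Start sites could be placed for 42 of the 59 members, by the outermost RefSeq promoter within 1 kb of the gene's upstream end. No member promoter, from 250 bases before to 50 after the start site, overlapped a peak of either list (0 of 42, which allows a share of up to 7.14%). Over 15751 protein-coding genes placed the same way, 0.184% had a KO peak there and 0.394% a WT peak. Within 2 kb of the start site, peaks lay at 2 members in KO (4.76%), Ptprc and Spp1, against 3.92% of all such genes. In WT they lay at 4 members (9.52%), against 7.21% of all such genes: Ptprc, Emcn, the Kupffer lectin Clec4f and the biliary keratin Krt7. The members' promoters were poor in CpG, and those of the hepatocyte markers more so. The median ratio of observed to expected CpG was 0.270 over the 42 members, against 0.546 over all 15751 promoters, and 19.0% of the members reached 0.6, against 45.8%. The 20 hepatocyte markers placed the same way had a median ratio of 0.199, and 5% reached 0.6, so low CpG is no trait of the non-hepatocyte markers alone. The letters TATAAA, searched on both strands, stood in 16.7% of the members' 250 bases and in 12.7% of all.

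Across the 59 markers the KO list held fewer peaks than the WT list, at a ratio within counting error of that of all genes. There were 65 KO peaks and 101 WT peaks, a ratio of 0.644 with an exact 95% interval of 0.464 to 0.888. Over all protein-coding genes the ratio was 0.754 (0.741 to 0.768), which lies inside the members' interval. Per 100 kb of window the members held 1.53 KO peaks (1.18 to 1.95) and 2.38 WT peaks (1.94 to 2.90). All protein-coding genes held 1.73 KO and 2.29 WT peaks per 100 kb. Over the 59 members neither list stood beyond counting error from these densities. For KO this rested on Pkhd1, the longest member, left out here after the values were seen. Without it the KO density was 1.17 (0.848 to 1.58) and the ratio was 0.512 (0.346 to 0.748). Both intervals lie below the values of all genes, that of the ratio by little (0.748 against 0.754). Pkhd1 held the most peaks of any member, 22 KO and 17 WT, so leaving it out could only lower the KO density and the ratio. Dpp4, with 2 KO and 8 WT peaks, was kept in. Without Pkhd1 the WT density was 2.29 (1.83 to 2.84). These intervals, exact Poisson for densities and exact binomial for ratios, cover counting error only.

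By gene, 19 members had a KO peak (32.2%), against 33.3% of all protein-coding genes, and 35 had a WT peak (59.3%), against 47.7%. With summits of 6 or more fragments, a limit chosen after the values were seen, the WT share was 30.5%, against 29% of all genes. The shares in this paragraph take no account of length, and the members' windows are longer, with a median of 39.6 kb against 27.2 kb. Both lists marked 17 members (28.8%), against 24.3% of all genes. KO peaks alone marked 2 members (3.39%), against 9.05%, and WT peaks alone marked 18 (30.5%), against 23.4%. Neither list marked 22 members (37.3%), against 43.3%. The 2 members with KO peaks alone were Lox, the lysyl oxidase that crosslinks collagen, and Ehf, an epithelial ETS factor. More KO than WT peaks lay at 5 members (8.47%), against 15.9% of all genes, and more WT than KO peaks lay at 29 (49.2%), against 34.1%. The 5 were Hgf, Lox, Ptprc, Ehf and Pkhd1, and the counts were equal at Dcn, Stab2 and Spp1.

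**Figure D1:**
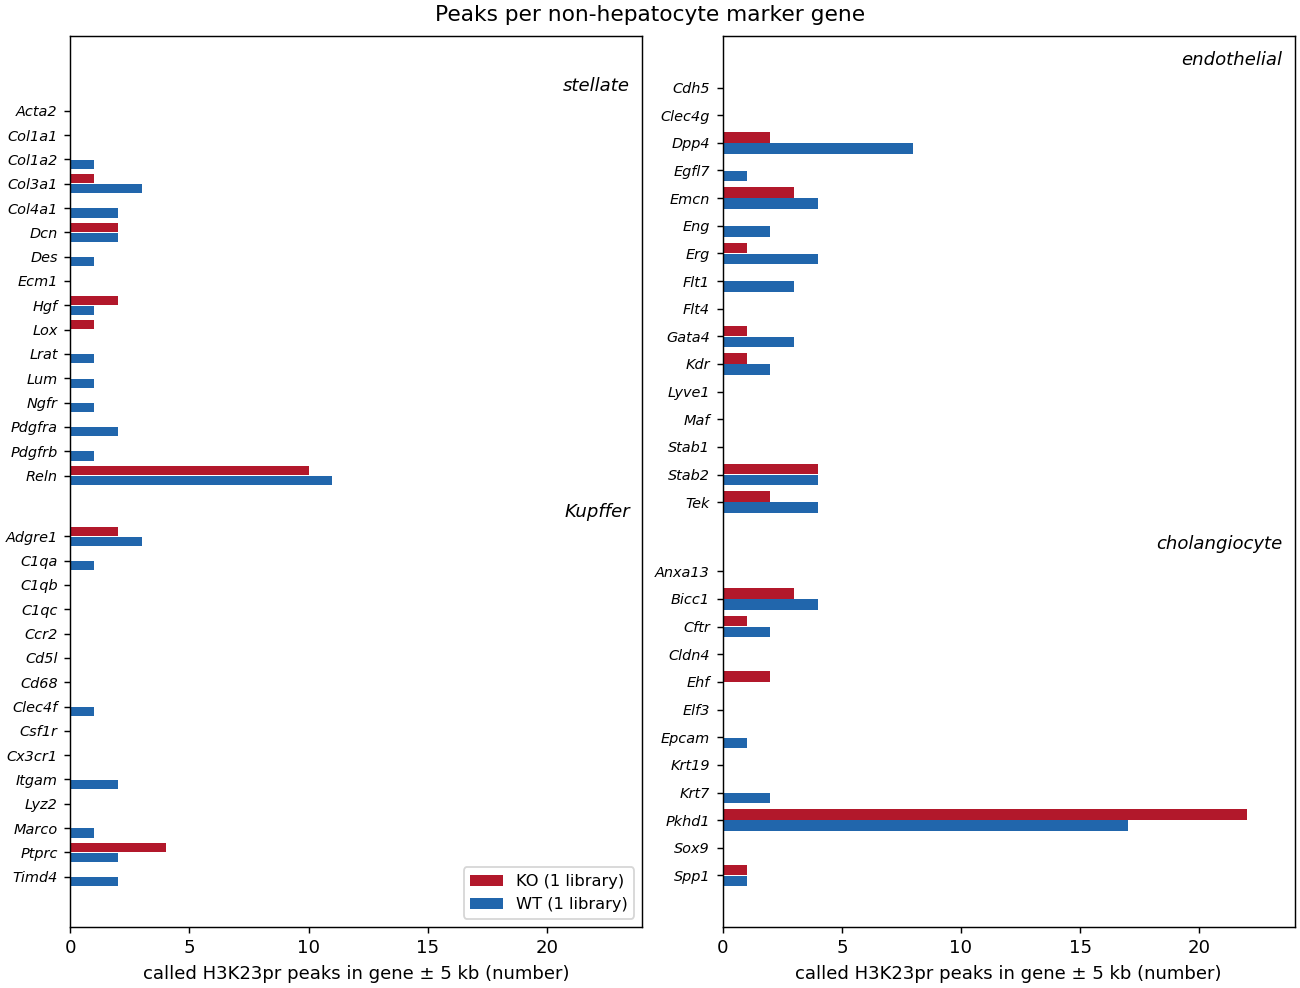
Number of KO peaks (red, upper bar) and WT peaks (blue, lower bar) in the window of each of the 59 marker genes, by cell class; 22 genes have no bar. Pkhd1 and Reln hold the most peaks in both lists, and WT bars without a KO bar stand in every class.

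Longer members were marked more often and held more peaks. Spearman's rho between window length and peak number over the 59 members was 0.65 for KO and 0.74 for WT, and 0.54 and 0.61 over all 21883 genes. These describe genes of 1 library each, and a longer window offers more bases in which a peak can lie. In windows under 20 kb, 1 of 15 members had a KO peak and 4 had a WT peak; the shares of all genes of that length were 11.5% and 21.9%. In windows of 20 to 40 kb the members numbered 1 KO and 6 WT of 15, beside 25% and 41.7% of all genes. In windows of 40 to 80 kb they numbered 5 KO and 11 WT of 15, beside 48.4% and 69%. In windows of 80 to 160 kb, 6 of 7 members had a KO peak and 7 a WT peak, beside 71.9% and 88.8%. In windows of 160 kb or more the counts were again 6 and 7 of 7, beside 91.5% and 97.3%. Adding up these shares over the members' own lengths gives 24.2 marked genes for KO, where 19 were marked, and 32.9 for WT, where 35 were marked. The shares of genes marked in both lists, added up in the same way, give 19.0, where 17 were marked.

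**Figure D2:**
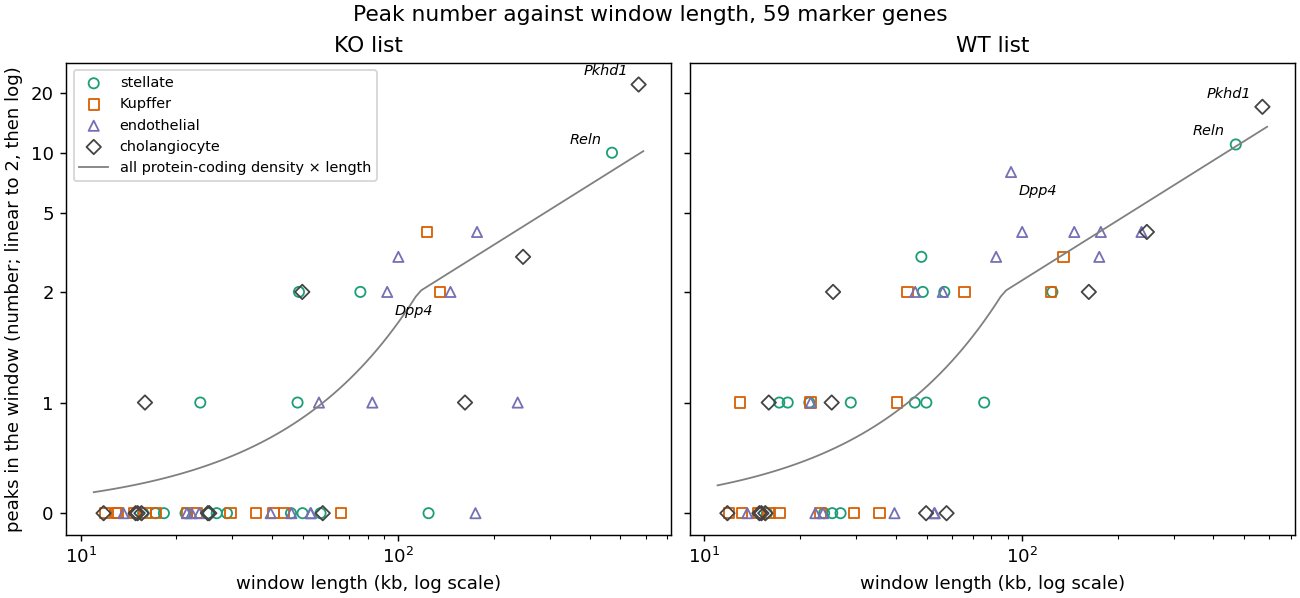
Peaks per marker gene against window length in the KO list (left) and the WT list (right), with a line for the density over all protein-coding genes; the vertical axis is linear to 2 and logarithmic above. Of the points of windows under 80 kb, 15.6% lie above 0 in KO and 46.7% in WT. Over all genes with such windows the shares are 24.2% and 39.0%. Pkhd1 and Dpp4 lie above the line in both lists, Dpp4 further above it in WT.

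The counts of the 2 lists were further apart in the shorter genes. The 5 longest members, Pkhd1, Reln, Bicc1, Erg and Stab2, together held 40 KO and 40 WT peaks, a ratio of 1 (0.629 to 1.59). The other 54 held 25 KO and 61 WT peaks, a ratio of 0.410 (0.246 to 0.663), an interval below the 0.754 of all genes. The ratio over all genes was also lower in shorter windows, so genes of like length are set beside the shorter members next. The difference between the long and the short members was not tested. In windows under 80 kb, a division made after the values were seen, 45 members held 10 KO and 30 WT peaks. That is 0.716 KO (0.344 to 1.32) and 2.15 WT peaks (1.45 to 3.07) per 100 kb, a ratio of 0.333 (0.145 to 0.701). All 18301 genes with such windows held 1.48 KO and 2.19 WT peaks per 100 kb, a ratio of 0.676. That ratio and the WT density lie inside the members' intervals, while the KO density lies above the members' interval. Among these shorter members 15.6% had a KO peak, against 24.2% of all, and 46.7% had a WT peak, against 39.0%.

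The stellate markers were marked in WT more often than in KO. A WT peak lay at 12 of 16 and a KO peak at 5, where their lengths gave 8.74 and 6.13. They held 16 KO and 27 WT peaks, 1.46 and 2.46 per 100 kb, a ratio of 0.593 (0.298 to 1.14). Reln, an extracellular glycoprotein gene (chr5:21884454-22344705), had 10 of the KO and 11 of the WT peaks, with 4 to 6 fragments at the summit in both lists. Among 218 genes of like length the medians were 7 KO and 10 WT peaks. Without Reln the class held 6 KO and 16 WT peaks, a ratio of 0.375 (0.120 to 1.01).

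Col4a1, a basement membrane collagen (chr8:11198423-11312889), had 0 KO peaks and 2 WT peaks of 7 and 6 fragments. Col1a2, a chain of type I collagen (chr6:4505618-4541543), had 0 KO peaks and 1 WT peak of 6 fragments. Col3a1 had 1 KO peak of 4 fragments and 3 WT peaks of 5, 4 and 4 fragments. Dcn, the small proteoglycan decorin (chr10:97479500-97518163), had 2 KO peaks of 4 and 5 fragments and 2 WT peaks of 5 and 7. Col1a1, the other chain of type I collagen, had no peak in either list, so the collagen genes differed among themselves. Pdgfra, a platelet-derived growth factor receptor (chr5:75151322-75198206), had 0 KO peaks and 2 WT peaks of 4 and 6 fragments. Hgf, the hepatocyte growth factor that stellate cells secrete (chr5:16553495-16619439), had 2 KO peaks of 6 and 5 fragments and 1 WT peak of 6. Lox (chr18:52516060-52529867) had 1 KO peak of 6 fragments and 0 WT peaks. Of the other members, Des, Lrat, Lum, Ngfr and Pdgfrb had 1 WT peak each and no KO peak, of 4 to 6 fragments. Acta2, the smooth muscle actin of activated cells, and Ecm1 also had no peak in either list.

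The Kupffer markers were the least marked class in KO. A KO peak lay at 2 of 15 and a WT peak at 7, where their lengths gave 4.58 and 6.83. They held 6 KO and 12 WT peaks, 1.02 and 2.03 per 100 kb, a ratio of 0.50 (0.154 to 1.44). All 6 KO peaks lay in the 2 longest genes of the class. Ptprc (chr1:138062859-138175756) had 4 KO peaks of 4, 5, 6 and 4 fragments and 2 WT peaks of 4 and 6. It was the 1 Kupffer marker with more KO than WT peaks, and the medians of 1203 genes of like length were 2 and 3. Adgre1, which encodes the macrophage antigen F4/80 (chr17:57358581-57483529), had 2 KO peaks of 5 and 5 fragments and 3 WT peaks of 4, 5 and 4. The other 13 genes, with windows under 80 kb, held 0 KO peaks (0 to 1.11 per 100 kb) and 7 WT peaks (0.847 to 4.34). All genes with such windows held 1.48 KO and 2.19 WT peaks per 100 kb. The division was made after the values were seen and leaves out the 2 genes with KO peaks, so it fixes the 0. Marco, a scavenger receptor (chr1:120474538-120505024), had 0 KO peaks and 1 WT peak of 5 fragments. Timd4, a receptor for phosphatidylserine on dying cells (chr11:46810786-46844333), had 0 KO peaks and 2 WT peaks of 5 and 4 fragments. The other 4 WT peaks had 4 fragments each and lay in the windows of Clec4f, C1qa and Itgam. No peak of either list lay at C1qb, C1qc, Ccr2, Cd5l, Cd68, Csf1r, Cx3cr1 or Lyz2. That list includes the growth factor receptor Csf1r and the monocyte chemokine receptors Ccr2 and Cx3cr1.

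The endothelial markers had the lowest KO to WT ratio of the 4 classes, although the intervals of the classes overlap. They held 14 KO and 35 WT peaks, a ratio of 0.400 (0.199 to 0.763), an interval that includes the 0.754 of all genes. Of the WT peaks, 8 lay at Dpp4. Per 100 kb that was 1.05 KO peaks (0.572 to 1.75) and 2.61 WT peaks (1.82 to 3.64), whose intervals do not overlap. Nor do those of all protein-coding genes (1.70 to 1.75 and 2.26 to 2.31), so this does not set the class apart. A KO peak lay at 7 of 16 and a WT peak at 10, where their lengths gave 8.67 and 11.1. All 7 members with a KO peak also had a WT peak, and no member had more KO than WT peaks.

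Dpp4 stood out within this class. It encodes a cell-surface dipeptidase, which hepatocytes and bile duct cells also carry, and lies at chr2:62330073-62412315. It had 2 KO peaks of 6 and 5 fragments and 8 WT peaks of 4 to 8 fragments. The WT count is 8.67 per 100 kb, and 99.2% of 1522 genes of like length had fewer WT peaks, while 56.8% had fewer KO peaks. The medians of those genes were 1 KO and 2 WT peaks. Its lowest-p WT peak, at chr2:62399227-62399350, had 8 fragments and a 4.53-fold enrichment over the local background. Another WT peak of 8 fragments lay over a background of 1.45 fragments and reached 3.67-fold.

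Eng, the transforming growth factor co-receptor endoglin (chr2:32646595-32682669), had 0 KO peaks and 2 WT peaks of 7 fragments each, at 4.73-fold and 4.42-fold. Stab2, a hyaluronan scavenger receptor of sinusoids (chr10:86841194-87008038), had 4 KO peaks of 4 to 6 fragments and 4 WT peaks of 4 to 7. Emcn (chr3:137341062-137431069) had 3 KO peaks of 5, 5 and 4 fragments and 4 WT peaks of 5, 5, 4 and 6. These counts were close in the 2 lists, but the positions were not shared. Kdr, the main receptor for vascular endothelial growth factor (chr5:75932827-75979072), had 1 KO peak and 2 WT peaks, all of 5 fragments. Erg, an endothelial ETS factor (chr16:95359169-95586600), had 1 KO peak of 4 fragments and 4 WT peaks of 4, 5, 4 and 6 fragments. For its length Erg was sparsely marked, since 12.0% of 492 genes of like length had fewer KO and 26.0% fewer WT peaks. Tek, the angiopoietin receptor, had 2 KO and 4 WT peaks, and Gata4, a transcription factor of sinusoidal cells, had 1 and 3. Egfl7 had 0 KO peaks and 1 WT peak, which lay in the body of the neighbouring gene Agpat2. Flt1, named here after its values were seen, had 0 KO and 3 WT peaks in 174.8 kb. It is the longest member without a KO peak. Cdh5, Clec4g, Flt4, Lyve1, Maf and Stab1 had no peak in either list, among them the junctional cadherin Cdh5 and the hyaluronan receptor Lyve1.

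The cholangiocyte markers were the 1 class with no fewer KO than WT peaks, and this rested on Pkhd1. The class held 29 KO and 27 WT peaks, 2.40 and 2.23 per 100 kb, a ratio of 1.07 (0.614 to 1.89). Pkhd1 encodes fibrocystin, a protein of the primary cilium of bile duct and kidney tubule cells, and is the longest member (chr1:20057779-20618082). It had 22 KO peaks of 4 to 8 fragments and 17 WT peaks of 4 to 7, or 3.86 and 2.98 per 100 kb. The medians of 151 genes of like length were 8 KO and 11 WT peaks, and 92.1% of them had fewer KO and 80.1% fewer WT peaks. Without Pkhd1 the class held 7 KO and 10 WT peaks, a ratio of 0.700 (0.226 to 2.04). Its strongest KO peak, at chr1:20621442-20621563, had 8 fragments and 5.74-fold enrichment and lay 3445 bp before the start site. Its strongest WT peak, at chr1:20202448-20202703, had 7 fragments and lay deep in the gene.

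The other cholangiocyte genes had few peaks. Cftr, the chloride channel of bile duct cells (chr6:18170687-18322770), had 1 KO peak of 7 fragments and 2 WT peaks of 4 fragments each. Its KO peak, at chr6:18320280-18320360, ranked 1182 of 41907 by caller p. Ehf (chr2:103263431-103303275) had 2 KO peaks of 4 and 7 fragments and 0 WT peaks. Bicc1, an RNA-binding protein linked to cystic kidney disease in mice (chr10:70922830-71159690), had 3 KO peaks of 4, 5 and 4 fragments and 4 WT peaks of 4, 4, 8 and 6. The WT peak of 8 fragments, at chr10:71066714-71066820, had 5.32-fold enrichment, the highest fold of any member WT peak. Spp1 (chr5:104435111-104441053) had 1 KO peak of 6 fragments and 1 WT peak of 5, both before the gene and 1293 bp apart. Krt7 had 0 KO and 2 WT peaks and Epcam, an epithelial adhesion molecule, 0 and 1, all of 4 fragments. Anxa13, Cldn4, Elf3, Krt19 and Sox9 had no peak in either list, so 2 standard biliary markers, the keratin Krt19 and the transcription factor Sox9, were unmarked.

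**Figure D3:**
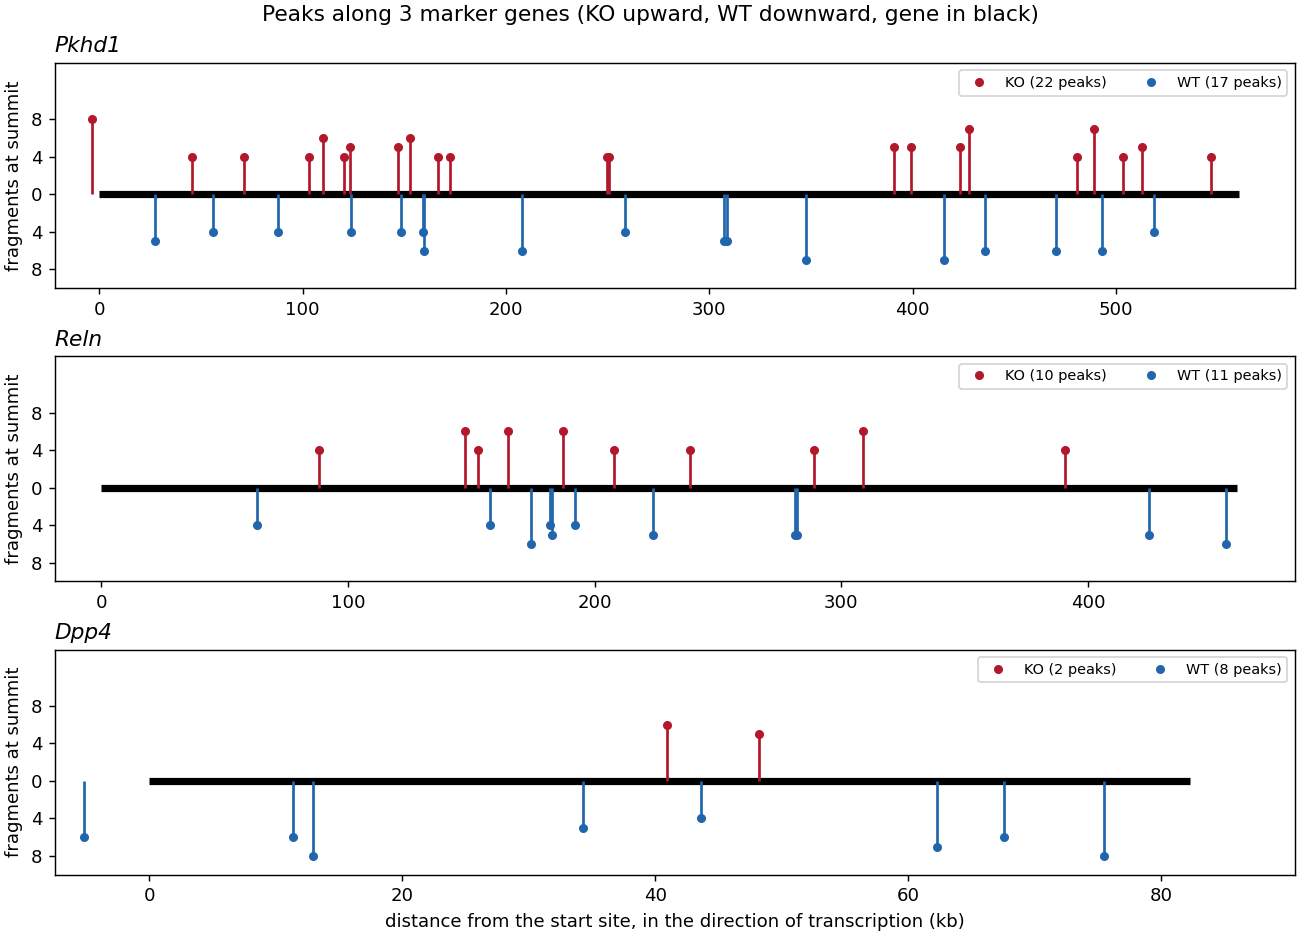
Peaks along Pkhd1, Reln and Dpp4, with KO peaks upward and WT peaks downward, against distance from the start site (kb); the height is the number of fragments at the summit. Pkhd1 holds 22 KO and 17 WT peaks, Reln 10 and 11, and Dpp4 2 and 8, and no KO peak overlaps a WT peak.

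**Figure D4:**
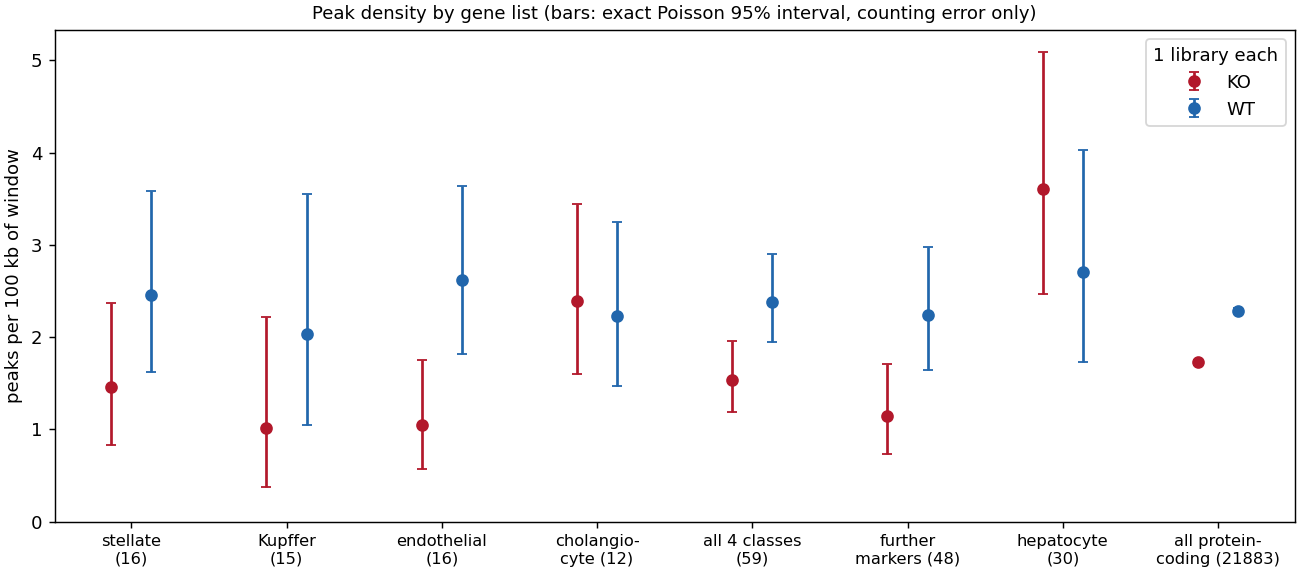
Peaks per 100 kb of window in each marker class, the further markers, the hepatocyte markers and all protein-coding genes, with KO (red) left of WT (blue) and exact Poisson 95% intervals as bars. The endothelial intervals do not overlap, while those of the other 3 classes do. Those of all protein-coding genes do not overlap either.

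Most KO peaks of the members lay within the genes. Of 65 KO peaks 61 lay in gene bodies and 4 in the 5 kb flanks, against 85 and 16 of 101 WT peaks. The bodies make up 86.4% of the windows' length and held 93.8% of the KO and 84.2% of the WT peaks. Per 100 kb, KO peaks numbered 1.67 in bodies and 0.694 in flanks, against 2.32 and 2.77 for WT peaks. Over all protein-coding genes the densities were 1.78 and 1.36 for KO and 2.31 and 2.13 for WT. The stellate flanks, 160 kb in all, held 0 KO and 6 WT peaks. Those of the Kupffer, endothelial and cholangiocyte members held 1, 1 and 2 KO and 2, 4 and 4 WT peaks. These counts are small and no interval was computed for bodies or flanks, so they set no class apart.

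At the 17 members that both lists marked, the peaks lay at different places. None of the 65 KO peaks overlapped a WT peak, which allows a share of up to 4.62%. No member therefore held an overlapping pair, against 1.03% of all protein-coding genes. Over the whole KO list 1.1% of peaks overlapped a WT peak, so this count does not set the members apart. Within 500 bp, 1 KO peak had a WT neighbour (1.54%), against 3.84% of all KO peaks, and within 1 kb 2 did (3.08%), against 6.57%. The nearer pair lay in Pkhd1, with 5 fragments in the KO peak at chr1:20494808-20494910 and 4 in the WT peak at chr1:20494159-20494308. The other lay in Dcn, with 5 fragments in the KO peak at chr10:97515496-97515576 and 7 in the WT peak at chr10:97516207-97516410. Within 2 kb 5 KO peaks had a WT neighbour (7.69%), against 11.7%, and within 5 kb 19 did (29.2%), against 24.5%.

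The members' peaks were as weak as most of the lists. The peak height is the number of IP fragments over the summit, and folds, p values and q values were taken from the authors' caller, peak by peak. Member summits held 4 to 8 fragments in both lists, with a median of 5. Summits of 4 fragments made up 46.2% of the KO and 40.6% of the WT peaks, against 42.6% and 37.5% of the whole lists. Summits of 7 or more made up 7.69% and 10.9%, against 9.56% and 11.9%. The median fold over the local background was 3.79 in KO and 3.55 in WT, and the median width was 86 bp and 128 bp, close to the mean fragment sizes. Local background stood at its genome-wide level, 0.568 fragments in KO and 0.692 in WT, for 92.3% of the KO and 66.3% of the WT peaks. At that level 4 fragments gave 3.19-fold in KO and 2.96-fold in WT, so folds differ between the lists for the same height. Of the member peaks 16 KO (24.6%) and 9 WT (8.91%) reached a caller q of 0.05, against 27.2% and 9.53% of the whole lists.

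Further markers of the same classes, 12 each, also held fewer KO than WT peaks, but the order of the classes differed. These 48 genes had a KO peak at 15 and a WT peak at 24, where their lengths gave 14.7 and 21.8. They held 24 KO and 47 WT peaks, a ratio of 0.511 (0.299 to 0.852). By class the KO and WT peaks numbered 5 and 8 for stellate, 7 and 9 for Kupffer, 5 and 17 for endothelial and 7 and 13 for cholangiocyte markers. The endothelial ratio was again the lowest, 0.294 (0.0848 to 0.831). The further Kupffer markers held 1.84 KO peaks per 100 kb (0.740 to 3.79), the most of the further classes, where the 15 Kupffer members held the fewest, 1.02. The further cholangiocyte markers had a ratio of 0.538 (0.182 to 1.45), where the 12 members had 1.07. The further cholangiocyte list includes keratins that hepatocytes also make, so it is not free of genes active in hepatocytes. Of the 17 endothelial WT peaks 8 lay at Ptprb, an endothelial phosphatase named here after its values were seen, which had 1 KO peak. In windows under 80 kb the further markers held 14 KO and 24 WT peaks, a ratio of 0.583 (0.279 to 1.17), and 23.8% of them had a KO peak, where 15.6% of the members had one.

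The lowest caller p among the further stellate markers in both lists lay at Lhx2, a transcription factor of quiescent stellate cells, with 1 KO peak of 7 fragments and 1 WT peak of 8. Among macrophage genes it lay in KO at the scavenger receptor Msr1, with a highest KO summit of 6 fragments and WT summit of 5. In WT it lay at the endotoxin co-receptor Cd14, with 0 KO peaks and 1 WT peak of 8 fragments. Among endothelial genes it lay in KO at the Fc receptor Fcgr2b, with 1 KO peak of 6 fragments and 0 WT peaks. In WT it lay at the transcription factor Sox18, with 0 KO peaks and 2 WT peaks of up to 7 fragments. Among cholangiocyte genes it lay at the cilium channel Pkd2 in KO, with summits of up to 7 fragments in both lists. The lowest in WT lay at Krt18, a keratin that hepatocytes also make, with 0 KO peaks and 1 WT peak of 8 fragments. Summit heights of the further markers thus fell in the same range as those of the 59 genes.

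Hepatocyte markers, whose cells lose RPN11 in the knockout by the design, held more KO peaks per 100 kb than the other markers. Over all windows the separation of the intervals rested on 1 gene, and the cause of the difference was not tested. The 30 genes held 32 KO and 24 WT peaks, 3.61 (2.47 to 5.09) and 2.70 (1.73 to 4.02) per 100 kb. The KO interval lies above that of the 59 markers, and the WT intervals overlap. Without Cps1, a urea cycle gene named here after its values were seen, the KO density was 2.73 (1.69 to 4.18), whose interval overlaps that of the 59 markers. A KO peak lay at 12 and a WT peak at 16, where their lengths gave 7.19 and 11.6. The ratio was 1.33 (0.761 to 2.37), but 11 KO and 2 WT peaks lay at Cps1. Without it the ratio was 0.955 (0.499 to 1.82). In windows under 80 kb, which leave out Cps1, the 29 hepatocyte markers held 2.73 KO peaks per 100 kb (1.69 to 4.18), against 0.716 (0.344 to 1.32) for the 45 non-hepatocyte markers. The WT values were 2.86 (1.79 to 4.33) and 2.15 (1.45 to 3.07). The KO to WT ratios in such windows were 0.955 (0.499 to 1.82) and 0.333 (0.145 to 0.701), whose intervals overlap. The division at 80 kb was made after the values were seen. Tdo2, the tryptophan dioxygenase of hepatocytes, was the 1 gene of all lists where a KO and a WT peak overlapped. Its KO peak, at chr3:81965493-81965644, had 8 fragments and its WT peak, at chr3:81965259-81965532, had 7. The hepatocyte excess in KO was known from earlier results of these data when the lists were set side by side, so it is no independent support.

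**Figure D5:**
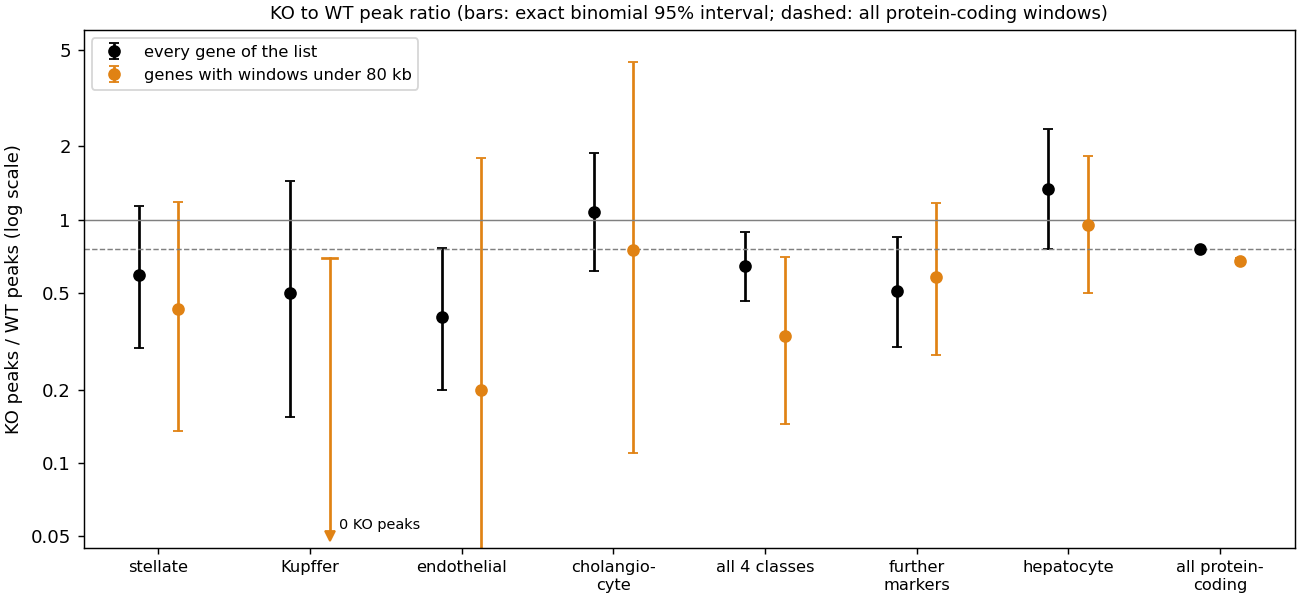
KO to WT peak ratio on a log axis for the marker classes and comparison lists, over all windows and over windows under 80 kb, with exact 95% binomial intervals as bars. Under 80 kb, a cut made after the values were seen, non-hepatocyte markers lie at 0.333 (0.145 to 0.701) and hepatocyte markers at 0.955 (0.499 to 1.82). These intervals overlap, and the 0.676 of all genes with such windows lies inside both. The further markers lie at 0.583. Kupffer windows under 80 kb hold 0 KO peaks, which the cut fixed, so only an upper bound is drawn. The endothelial bar for such windows runs below the axis.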

How the data were processed

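H3K23pr ChIP-seq was deposited as 1 peak list per genotype, KO and WT, each called on 1 IP library against its own input. The submitters' processing notes name cutadapt 1.9.3, Bowtie2 2.2.4 and the build mm10. The peak caller, per the file headers, was MACS2 2.1.1.20160309 in narrow, paired-end mode, with p set to 0.001, a genome size of 1870000000 bp and a limit of 2 identical fragments. The caller kept 15468265 of 17764217 KO and 13615838 of 15588633 WT IP fragments, and the inputs held 10000823 and 9385834. The deposited pileup was read as a signal, the number of IP fragments at the summit. The deposited fold is the ratio of pileup to local background, each with 1 added. The p and q values were deposited as −log10 values; the headers state that no q would be computed, yet the column is filled, and it served here only to describe and filter. Peak length and position were deposited in bp.

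Gene ends and promoters came from RefSeq tables of GRCm38.p6, which shares its coordinates with mm10. Windows, overlaps of at least 1 bp, densities and exact 95% intervals were computed with Python 3.11.15, pandas 2.3.3, numpy 2.4.6 and scipy 1.17.1, and the overlap code was tested on simulated data. Overlapping windows were merged for densities. A peak that overlapped the gene itself counted as in its body, and any other as in a flank. No p-value was computed. Named genes were, per class, the 4 with the lowest caller p in each list, the 5 longest, those without a peak, Psmd14 and genes with overlapping KO and WT peaks. Other members were given by count, or named for their class or start site after their values were seen. The members, lists and rules were chosen with earlier results of these data known.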

Additional observations from a re-analysis of the deposited data

How the results depend on the processing

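No paired analysis was possible because each genotype has 1 IP library, and no replicate could be left out. With 4 to 8 fragments per summit, the gene counts depend on how weak a peak is admitted. The KO to WT ratio of the members was below 1 under every setting run except a caller q of 0.05 or smaller. There it was 1.78, beside 2.04 over all genes. The ratio over all genes was below 1 in the same settings as that of the members. With the strongest 40000 peaks of each list the members' ratio was 0.797 (0.563 to 1.12), beside 0.955 over all genes. In gene bodies alone it was 0.718 (0.508 to 1.01), beside 0.770. It was 0.512 without Pkhd1 and 0.410 without the 5 longest members. KO density per 100 kb was 0.826 with summits of 5 or more fragments, 0.401 with 6 or more, 0.378 under the q limit, 1.17 without Pkhd1 and 0.986 without the 5 longest. WT density was 1.42, 0.779 and 0.212 under the same 3 peak limits and 1.86 when each list was held to its strongest 40000 peaks. With 6 or more fragments, members with a KO peak numbered 10 (16.9%, against 17.8% of all protein-coding genes), with a WT peak 18 (30.5%, against 29%) and with both 6 (10.2%, against 10.6%). Under the q limit they numbered 9 (15.3%, against 16%), 7 (11.9%, against 11.4%) and 3 (5.08%, against 4.8%). Asking that the KO peak overlap a WT peak, or lie within 500 bp or 1 kb, left 0, 1 and 2 members (0%, 1.69% and 3.39%), against 1.03%, 3.39% and 5.32% of all genes. The class ratios below rest on few peaks. The cholangiocyte ratio was 4 under the q limit (8 KO and 2 WT peaks) and 0.889 with 6 or more fragments (8 and 9). It was 0.700 without Pkhd1 (7 and 10) and 0.667 without the 5 longest (4 and 6). Under the q limit, where all genes had 2.04, the stellate ratio was 2.50 (5 KO and 2 WT peaks). There the further markers had 1.17 (7 and 6) and the hepatocyte markers 4 (12 and 3). The hepatocyte ratio was 0.955 without Cps1. With 6 or more fragments the endothelial ratio was 0.143 (2 KO and 14 WT peaks, 0.0158 to 0.622), beside 0.656 over all genes. The Kupffer ratio was 1 with either fragment limit (4 and 4 peaks, or 1 and 1). It was 0.857 with the strongest 40000 peaks (6 and 7). The settings of 6 or more fragments, without Pkhd1 and without Cps1 were chosen after seeing the data. Each setting keeps fewer peaks or fewer genes by construction. Over the genome-wide background, 6 fragments reached a −log10 q of 1.38 in KO and 1.07 in WT, so the q limit admits lower summits in KO.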

Other observations

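Over all protein-coding genes the KO to WT peak ratio differed with window length. It was 0.555 (0.514 to 0.599) in windows under 20 kb, 0.633 (0.60 to 0.667) in windows of 20 to 40 kb, 0.721 in windows of 40 to 80 kb, 0.750 in windows of 80 to 160 kb and 0.828 in longer ones, against 0.770 over the whole lists. The members' ratios in the same classes were 0.250 (1 KO and 4 WT peaks), 0.143 (1 and 7), 0.421 (8 and 19), 0.538 (14 and 26) and 0.911 (41 and 45), which is not a rise at every step.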
